A study of Mus musculus with 32 samples.

Results

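The genes of the MHC class I presentation pathway were followed in mouse liver tumours. They were 10 genes of the 54446 in the count tables and were chosen by symbol: the heavy chains H2-K1 and H2-D1, the light chain B2m, the peptide transporter and loading genes Tap1, Tap2 and Tapbp, the immunoproteasome subunits Psmb8, Psmb9 and Psmb10, and the transactivator Nlrc5. All 10 were in each of the count tables and passed the filter on low counts in each of the 3 experiments. RNA sequencing was done on 32 tumours of BNL-MEA, a mouse liver cancer cell line, grown in BALB/c mice. The study treated mice with regorafenib, an oral inhibitor of several kinases including the VEGF receptors, to ask how it acts on antitumour immunity. Tumours of the dose and DC-101 experiments were collected after 5 days of treatment, and the antibody to PD1 was injected intraperitoneally in repeated doses.

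The labels place the libraries in 3 batches, called experiments here. In the dose experiment, 4 vehicle libraries stood beside 3 libraries at each of 5 mg/kg/day (the low dose) and 20 mg/kg/day (the high dose). In the DC-101 experiment, 4 vehicle libraries stood beside 3 libraries of low dose regorafenib and 3 of DC-101, an antibody to mouse VEGFR2 injected intraperitoneally (800 ug per injection, on days 1, 3 and 5). In the anti-PD1 experiment there were 3 libraries each of vehicle, of the low dose, of an antibody to PD1 and of both drugs together, with regorafenib again at 5 mg/kg/day. All groups carried the same implanted line in the same strain, and the mice had an intact immune system. Cells were implanted under the capsule of the liver. The age of the mice is not given in the sources used here, and the labels do not say that each library came from a separate mouse, so p-values measure the spread between these libraries. A tumour library holds RNA of tumour cells, immune cells, vessels and liver, so a gene read in more cells and a gene read at a higher level per cell cannot be told apart.

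MHC class I molecules show peptides from inside the cell to CD8+ T cells. Proteasomes cut proteins into peptides, the TAP transporter carries them into the endoplasmic reticulum, tapasin holds an empty class I molecule beside the transporter, and a heavy chain with beta-2 microglobulin takes the peptide to the surface. Interferon gamma raises most of these genes, exchanges the catalytic subunits of the proteasome for the immunoproteasome subunits, and acts on class I promoters in part through Nlrc5, and loss of this pathway is a known route of immune escape in tumours.

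Of the 10 genes, 7 lie on chromosome 17, in or beside the mouse MHC (coordinates on GRCm38, Gencode M21). From low to high coordinates these were Tapbp at chr17:33915899-33929292 (+), H2-K1 at chr17:33996017-34000347 (-), Psmb9 at chr17:34181987-34187764 (-), Tap1 at chr17:34187553-34197225 (+), Psmb8 at chr17:34197721-34201454 (+), Tap2 at chr17:34203527-34216321 (+) and H2-D1 at chr17:35262730-35267499 (+). Psmb9, Tap1, Psmb8 and Tap2 were neighbours: 495 bases lay between Tap1 and Psmb8 and 2072 bases between Psmb8 and Tap2. Psmb9 and Tap1 run in opposite directions and overlap at their starts (chr17:34187553-34187764), so their reads can be told apart there only if strand was used, and the strand setting of the counts is not stated. B2m is at chr2:122147686-122153083 (+), Psmb10 at chr8:105935735-105938444 (-) and Nlrc5 at chr8:94434356-94527272 (+). Nlrc5 has by far the longest mRNA, with 7578 bases and 53 exons, against 860 bases for B2m and 3442 bases for Tap2, the next longest.

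Class I heavy chain genes resemble each other, and BALB/c mice carry another H2 haplotype (d) than the C57BL/6 reference genome (b), with a further class I gene, H2-L, so counts of H2-K1 and H2-D1 are uncertain in how reads were shared out. In the reference transcripts, 93 of the 2003 stretches of 100 bases in H2-D1 (4.64%) were found unchanged in another gene, most often in H2-Q1 (85 stretches). Tapbp shared 3 of 2799 stretches, and none of the other 8 members shared any.

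Promoter sequence is shown for the genes that encode the class I molecule itself, since the letters known from class I promoters could be searched there. RefSeq promoter windows (GRCm38.p6) up to the start site were at hand for 8 of the 10 genes, all but Tap2 and Nlrc5. By Gencode M21 the windows of H2-K1 and B2m, as printed here, hold no untranslated base, while the other 6 overlap annotated untranslated sequence by 52 to 250 bases, so they lie partly or wholly inside a transcript. That of H2-D1 does over all 250 bases. In H2-K1, H2-D1 and B2m a TGACG, the core of a cyclic AMP response element, was followed by a CCAAT box read on the other strand, with 20 bases between them, as in the 3 stretches of 30 bases here, written 5′ to 3′ with both motifs in capitals.
H2-K1, chr17:34000359-34000388 (-): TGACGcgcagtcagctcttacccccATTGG
H2-D1, chr17:35262993-35263022 (+): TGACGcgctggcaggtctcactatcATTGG
B2m, chr2:122147609-122147638 (+): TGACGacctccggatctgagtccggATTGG
This pair of motifs at this spacing was in 30 of 32817 windows of all genes (0.0914%) and in 3 of the 8 windows of the members. The spacing was chosen after the windows of H2-K1, H2-D1 and B2m had been read, so the count among them is a description of these letters and not a test.

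The whole windows of H2-K1 (chr17:34000348-34000597, minus strand) and B2m (chr2:122147437-122147685, plus strand) carry these pairs near their ends. Capitals mark the pair and any match of an interferon response element core (GAAANNGAA or GAANNGAAA) or a kB-type site (GGGNNTTCC) on either strand.
H2-K1: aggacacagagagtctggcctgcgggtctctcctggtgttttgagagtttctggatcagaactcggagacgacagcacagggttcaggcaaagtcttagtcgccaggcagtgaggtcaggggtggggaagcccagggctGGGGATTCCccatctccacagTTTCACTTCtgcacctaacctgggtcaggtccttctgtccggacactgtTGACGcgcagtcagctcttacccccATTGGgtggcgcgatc
B2m: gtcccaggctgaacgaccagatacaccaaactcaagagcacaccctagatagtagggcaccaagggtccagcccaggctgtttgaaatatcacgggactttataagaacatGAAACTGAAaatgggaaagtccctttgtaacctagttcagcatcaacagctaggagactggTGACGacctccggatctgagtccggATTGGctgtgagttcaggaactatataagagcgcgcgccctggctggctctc
The interferon response element core in either spelling was in 12.5% of all windows and in 3 of the 8 windows of the members, those of H2-K1, H2-D1 and B2m. Its second spelling was added after the windows were read. The kB-type site was in 4.97% of all windows and in those of H2-K1 and H2-D1, and a gamma-activated site (TTCNNNGAA) was in 7.01% of all windows and in that of Psmb8. TGACG alone was in 17.7% of all windows and 5 of the 8, and CCAAT alone in 33.8% of all windows and 6 of the 8. A match is a run of letters and no evidence of binding.

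Total counts per library were 16767130 to 27693689 for the dose experiment, 17936497 to 25489496 for DC-101 and 20463408 to 25336811 for anti-PD1. Levels are given as log2 CPM, the log2 of CPM values on a library total scaled by TMM (trimmed mean of M values), with a prior count of 2. The CD45 gene Ptprc, which marks leukocytes, was at 36.7 to 186 CPM and the hepatocyte gene Alb at 11 to 27943 CPM over all libraries, so both immune cells and a very uneven amount of liver were in the samples. Some libraries stood apart. High dose replicate 1 had the lowest TMM factor (0.678) and the highest share of mitochondrial counts (5.37%). In the anti-PD1 experiment, vehicle replicate 1 had a mean over the members of 8.69 log2 CPM, against 7.39 and 7.40 in the other vehicle libraries. A length contrast, the median centred level of the longest mRNAs (from 4463 bases in the dose experiment) minus that of the shortest (up to 1906 bases), was -0.30 to 0.23 for dose, -0.25 to 0.22 for DC-101 and -1.07 to 0.72 for anti-PD1 libraries.

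Untreated tumours expressed all 10 genes. Per kilobase of mRNA, B2m was the highest in the vehicle libraries of each experiment, with a mean of 10.71, 10.57 and 11.17 log2 CPM per kilobase (dose, DC-101 and anti-PD1 experiments in turn). H2-D1 followed at 8.84, 9.10 and 9.47 and H2-K1 at 8.63, 8.76 and 9.05. H2-D1 was above H2-K1 within each of the 11 vehicle libraries, by 0.11 to 0.59. This order rests on counts whose sharing among class I genes is uncertain, as given above. Tapbp (6.55, 6.46 and 6.65) and Psmb8 (6.24, 6.20 and 6.98) came next and changed places in the anti-PD1 experiment. The other immunoproteasome subunits and the transporter chains lay close together, with dose experiment means of 5.36 for Psmb10, 5.21 for Psmb9, 4.95 for Tap1 and 4.90 for Tap2, and within libraries their order changed: Psmb10 was above Psmb9 in 7 of 11 vehicle libraries, Psmb9 above Tap1 in 8 and Tap1 above Tap2 in 8. Nlrc5 was the lowest in each experiment, at 2.53, 2.88 and 1.97 log2 CPM per kilobase. In the dose experiment, by level without regard to length, B2m was above 99.8% of tested genes, H2-K1 above 99.0% and Nlrc5 above 69.4%.

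**Figure D1:**
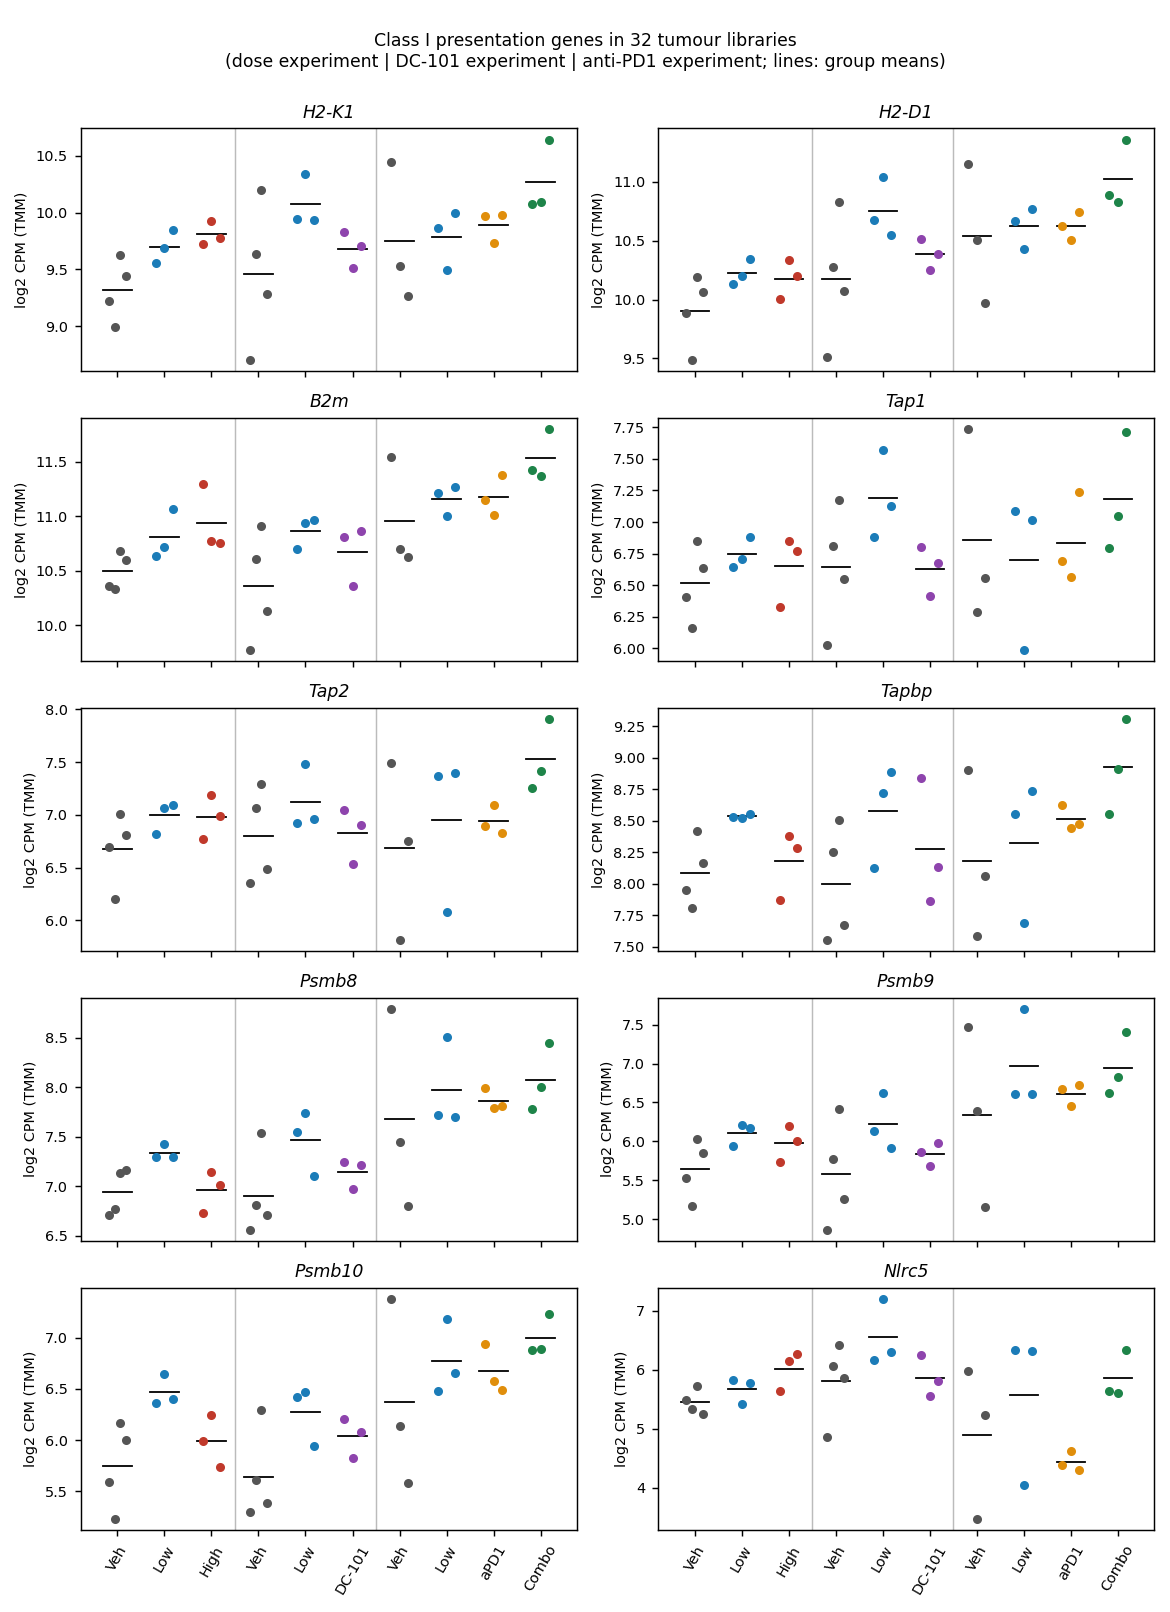
Log2 CPM (TMM-scaled, prior count of 2) of each member in each of the 32 libraries, by group (Veh, vehicle. Low and High, regorafenib at 5 and 20 mg/kg/day. aPD1, anti-PD1. Combo, regorafenib plus anti-PD1), with experiments separated by vertical lines and group means as horizontal lines. Axes differ between genes and do not start at 0. The vehicle libraries of the DC-101 and anti-PD1 experiments spread widely, for H2-K1 from 8.70 to 10.20 and from 9.26 to 10.45.

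Treatments were compared within each experiment with the quasi-likelihood F-test of edgeR, 2-sided, with Benjamini-Hochberg adjustment over all tested genes, and the low dose was also compared over all 3 experiments. Across these 12 comparisons, none of the 10 members passed an adjusted p of 0.05. Within experiments, 8 of the 110 member changes (7.27%) had an unadjusted p under 0.05, against 14.5% of the changes of all tested genes. In 7 of the 12 comparisons all 10 members were above 0 on the log2 scale. These 7 share libraries with each other. In high dose against vehicle, Tapbp and Psmb8 turned below 0 when libraries were scaled by total counts. In the combination against vehicle, Tap1 (-0.02) and Psmb8 (-0.01) did without 3 libraries of low length contrast. Leaving out some single libraries also turned members in both comparisons.

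**Figure D2:**
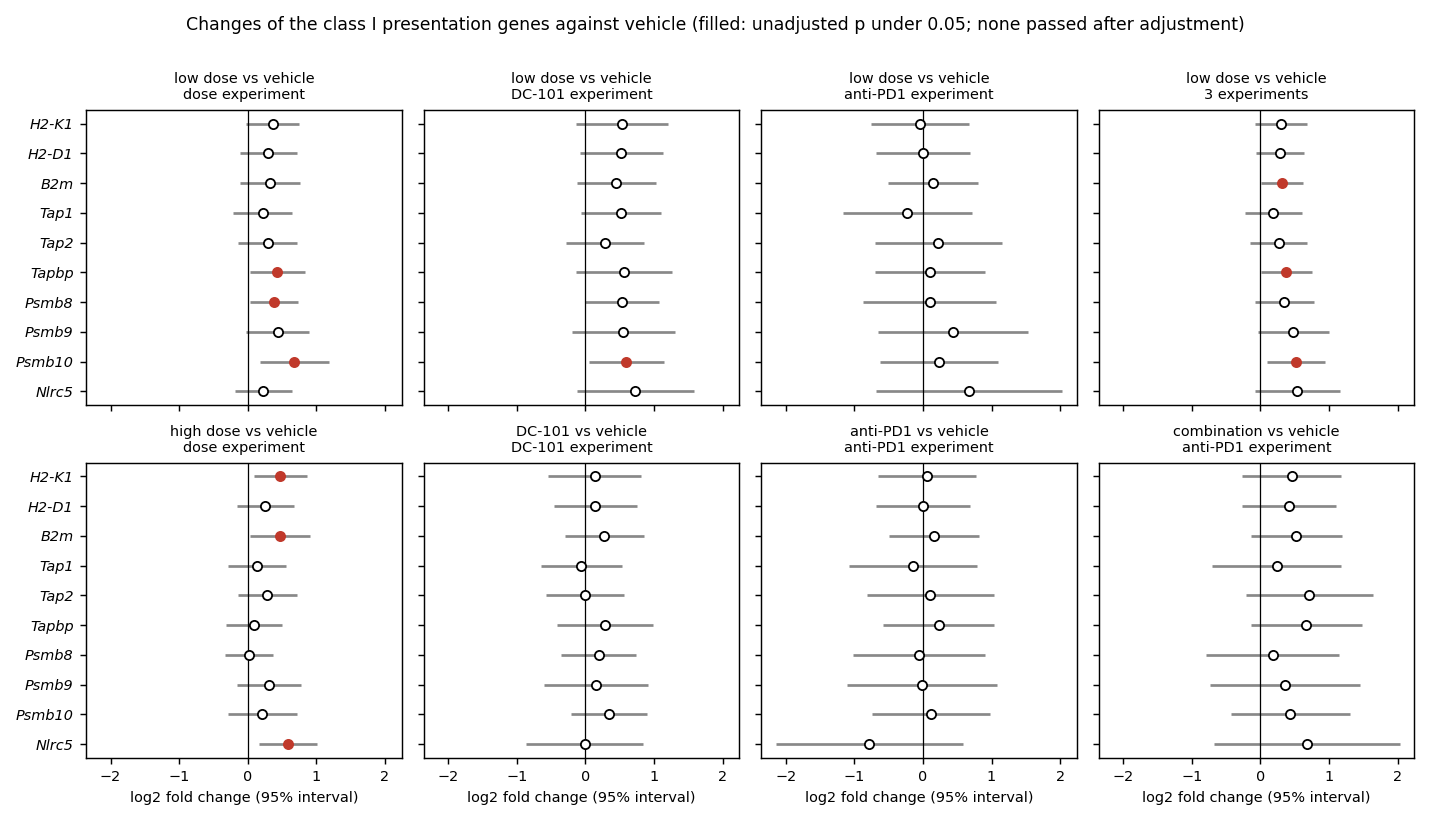
Log2 change of each member against vehicle with its 95% interval, for the 7 comparisons with vehicle within an experiment and the low dose over 3 experiments. All 10 members are above 0 at high dose here, but Tapbp and Psmb8 fall below 0 with scaling by total counts. Filled points had an unadjusted p under 0.05, and none passed the adjusted threshold. Most intervals reach 0, and the widest are those of Nlrc5 in the anti-PD1 experiment, for example -2.15 to 0.58 under anti-PD1.

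Low dose regorafenib in the dose experiment was set against vehicle first. The members were between 0.21 (Tap1) and 0.68 (Psmb10) higher on the log2 scale, with a median of 0.34, where the median over 16525 tested genes was 0.00. None of the 10 passed the threshold by edgeR, as did none of all tested genes (0%), and 3 members and 4.94% of all tested genes had an unadjusted p under 0.05. DESeq2 and limma voom also called no member, with 4 members each at an unadjusted p under 0.05, where 6.29% and 5.0% of tested genes had. In 3 members the low dose libraries all lay above the vehicle libraries, where 6.92% of tested genes did.

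Among the class I molecule's own genes, H2-K1 was at 9.22, 9.0, 9.63 and 9.44 log2 CPM in vehicle and 9.56, 9.69 and 9.85 in the low dose libraries, a log2 change of 0.36 (95% interval -0.03 to 0.74). The lowest low dose library was below the highest vehicle library, so the groups overlapped. H2-D1 (0.30, interval -0.12 to 0.72) and B2m (0.32, interval -0.12 to 0.76) overlapped as well. Leaving out single libraries gave 0.18 to 0.40 for H2-D1 and 0.19 to 0.40 for B2m.

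Tapbp, which encodes tapasin, was at 7.95, 7.81, 8.42 and 8.16 log2 CPM in vehicle and 8.53, 8.52 and 8.55 at low dose, a log2 change of 0.43 (0.03 to 0.83; unadjusted p = 0.0387, adjusted p = 0.989 by edgeR). The low dose libraries were tightly grouped and above all vehicle libraries. The transporter chains Tap1 (0.21, interval -0.21 to 0.64) and Tap2 (0.29, interval -0.14 to 0.72) overlapped between groups.

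Psmb10, a catalytic subunit of the immunoproteasome, had the largest change among the members. It was at 5.60, 5.23, 6.17 and 6.0 log2 CPM in vehicle and 6.36, 6.64 and 6.4 at low dose, a log2 change of 0.68 (0.17 to 1.18; unadjusted p = 0.0138, adjusted p = 0.843 by edgeR). Psmb8 was at 6.71, 6.77, 7.13 and 7.16 in vehicle and 7.29, 7.43 and 7.30 at low dose, a log2 change of 0.38 (0.03 to 0.74; unadjusted p = 0.0373, adjusted p = 0.989 by edgeR). In both, each low dose library was above each vehicle library. Psmb9 (0.43, interval -0.03 to 0.90) and Nlrc5 (0.23, interval -0.19 to 0.65) overlapped. Vehicle replicate 2 was the lowest vehicle library for 8 of the 10 members, and without it the median change was 0.27. Markers of other cells moved too: all 9 T cell markers were above 0 (median 0.77, 3 at an unadjusted p under 0.05), all 6 NK and cytotoxic markers (median 1.22, 4 at an unadjusted p under 0.05) and all 8 macrophage markers (median 0.75, 6 at an unadjusted p under 0.05). All 7 endothelial markers were below 0 (median -1.01, 3 at an unadjusted p under 0.05), as were 3 of 4 neutrophil markers (median -1.41, 2 at an unadjusted p under 0.05). None passed the adjusted threshold, and their part in the members' values was not tested.

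High dose regorafenib against the same vehicle libraries gave a different order of genes. All 10 members were above 0, from 0.02 (Psmb8) to 0.58 (Nlrc5), with a median of 0.27 against 0.02 over all tested genes. None of the 10 passed the threshold by edgeR (smallest adjusted p = 0.0564), where 15.6% of tested genes did. The same 3 members that had an unadjusted p under 0.05, Nlrc5, H2-K1 and B2m, were called by DESeq2, with adjusted p-values of 0.0235, 0.0185 and 0.0432. DESeq2 called 32.2% of tested genes in this comparison, and 40.1% had an unadjusted p under 0.05 by edgeR, so 3 of 10 members was no more than the share of all genes. In 2 members the high dose libraries all lay above vehicle, against 11.8% of tested genes. Under scaling by total counts the median over all tested genes was -0.13, and relative to it the members' median of 0.14 was 0.27 higher, while Tapbp was at -0.03 and Psmb8 at -0.11.

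Nlrc5, the transactivator of class I genes, was at 5.49, 5.33, 5.73 and 5.24 log2 CPM in vehicle and 5.64, 6.14 and 6.27 at high dose, a log2 change of 0.58 (0.16 to 1.0; unadjusted p = 0.0118, adjusted p = 0.0564 by edgeR). Only high dose replicate 1 fell within the vehicle range. Without that library, which stood apart by its TMM factor, the change was 0.77 and passed the threshold (adjusted p = 0.0421 by edgeR), 1 of the 10 members where 5.65% of tested genes passed.

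H2-K1 was at 9.72, 9.93 and 9.78 log2 CPM at high dose, each above the 4 vehicle libraries given before, a log2 change of 0.47 (0.09 to 0.86; unadjusted p = 0.0216, adjusted p = 0.0746 by edgeR). B2m was at 10.36, 10.33, 10.68 and 10.60 in vehicle and 11.30, 10.77 and 10.76 at high dose, a log2 change of 0.46 (0.03 to 0.90; unadjusted p = 0.0399, adjusted p = 0.108 by edgeR). High dose replicate 1 was the highest for B2m and the lowest for H2-K1, and neither gene overlapped with vehicle. Without high dose replicate 1 the change of B2m was 0.28. H2-D1 (0.25, interval -0.16 to 0.67) did.

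The remaining members overlapped between high dose and vehicle. These were Tap1 (0.13), Tap2 (0.28), Tapbp (0.09), Psmb8 (0.02), Psmb9 (0.31) and Psmb10 (0.21), with unadjusted p-values of 0.170 or more by edgeR. The interval of Psmb10 was -0.30 to 0.72. The median of the members was 0.15 without vehicle replicate 2 and 0.38 without vehicle replicate 3.

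The cell type markers of the high dose libraries differed from those of vehicle far more than the members did. Of 8 macrophage markers 7 fell (median -1.35), of 5 leukocyte markers 5 fell (median -1.40), and of 9 T cell markers 4 rose (Cd8b1, Cd3g, Cd3d and Cd3e, parts of the CD8 coreceptor and the T cell receptor complex, median 1.61). Per library, the mean of the T cell markers was 0.27 to 1.21 log2 CPM in vehicle and 1.35 to 2.79 at high dose, and that of the macrophage markers was 7.95 to 8.73 and 6.46 to 7.74. Of 6 NK and cytotoxic markers 2 rose (median 1.59) and of 4 B cell markers 1 rose (median 3.78). Of 7 endothelial markers 2 fell (median -0.43), of 5 proliferation markers 2 (median -1.35) and of 6 dendritic cell markers 1 (median 0.45). Of the 15 hepatocyte markers 14 had an unadjusted p under 0.05 and 1 passed the adjusted threshold (median 3.76). Without high dose replicate 1, 3 macrophage markers, 1 leukocyte marker and 4 T cell markers passed, and with scaling by total counts none of these 3 lists had a member that passed (medians -1.46, -1.50 and 1.49). No hepatocyte marker passed in either setting, with medians of 1.79 and 3.28. With scaling by total counts 1 NK and cytotoxic, 1 endothelial and 1 dendritic cell marker passed, and no B cell or proliferation marker. With a hepatocyte score in the model the median of the members was 0.22. In that fit 1 member and 18.7% of tested genes had an unadjusted p under 0.05. The part of the other markers in the members' values was not tested.

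High and low dose libraries, which both serve in the comparisons above, were also compared with each other. Of the 10 members 3 were above 0, from -0.47 (Psmb10) to 0.36 (Nlrc5), with a median of -0.06, against 0.07 over all tested genes. None of the 10 passed the threshold by edgeR, by DESeq2 or by limma voom, and none had an unadjusted p under 0.05, while 4.22% of tested genes passed by edgeR. Of those genes 41.3% were higher at high dose, and 29.8% with scaling by total counts, where the median was -0.18 over the members and -0.09 over all tested genes. In 3 members, Tapbp, Psmb8 and Psmb10, each high dose library lay below each low dose library, where 16.2% of tested genes did. No member was higher without overlap, where 11.6% of genes were. Psmb10 was at 5.99, 6.24 and 5.74 log2 CPM at high dose and 6.36 to 6.64 at low dose, and the interval of its change was -1.01 to 0.08. The median turned to 0.03 without high dose replicate 1. Of 8 macrophage markers 7 fell (median -2.13) and of 5 leukocyte markers 4 fell (median -1.93), and with scaling by total counts 3 and 1 did. Without high dose replicate 1 the counts were again 7 and 4. Of 12 tested genes of the interferon gamma axis 2 fell (median -0.02), and of 9 of the type I interferon axis 2 fell (median -0.56). With scaling by total counts 0 and 0 of these fell, and without high dose replicate 1 2 and 1 did. The part of these lists in the members' values was not tested.

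In the DC-101 experiment, low dose regorafenib was compared with vehicle and with blockade of VEGFR2 by DC-101. Low dose against vehicle gave all 10 members above 0, from 0.29 (Tap2) to 0.73 (Nlrc5), with a median of 0.53 against 0.01 over 16138 tested genes. None of the 10 passed the threshold by edgeR, DESeq2 or limma voom, where 0.0248% of tested genes passed by edgeR, and 1, 5 and 2 members had an unadjusted p under 0.05 by these tools in turn, where 17.1%, 21.4% and 16.7% of tested genes had. No member's groups were apart, against 6.93% of tested genes that were higher without overlap. The median of the members was 0.36 without vehicle replicate 1 and 0.79 without vehicle replicate 3.

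Psmb10 was at 5.30, 5.61, 6.29 and 5.39 log2 CPM in vehicle and 6.42, 6.47 and 5.95 at low dose, a log2 change of 0.60 (0.05 to 1.14; unadjusted p = 0.0363, adjusted p = 0.261 by edgeR). H2-K1 was at 8.70, 9.63, 10.20 and 9.29 in vehicle and 9.95, 10.34 and 9.93 at low dose, a log2 change of 0.53 (-0.14 to 1.20). Nlrc5 was at 4.86, 6.06, 6.43 and 5.86 in vehicle and 6.16, 7.21 and 6.31 at low dose, a log2 change of 0.73 (-0.12 to 1.58), which was 0.35 without low dose replicate 2. In all 3 genes vehicle replicate 1 was the lowest library and vehicle replicate 3 reached into the low dose range, as it did for each of the 10 members.

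The other members were close to each other: H2-D1 at 0.53, B2m at 0.45, Tap1 at 0.52, Tap2 at 0.29, Tapbp at 0.56, Psmb8 at 0.53 and Psmb9 at 0.55, each with an interval that reached 0. The spread among vehicle libraries was wide in this experiment, and markers of T cells spread with it. The T cell marker mean was -0.76, 1.02, 2.30 and 0.02 log2 CPM in the 4 vehicle libraries, lowest in replicate 1 and highest in replicate 3 as for the members. It was 0.43, 2.81 and 0.70 in the low dose libraries, of which replicate 2 had the highest level of 8 of the 10 members in the experiment. All 7 endothelial markers were below 0 at low dose (median -1.55, 5 at an unadjusted p under 0.05), while all 15 hepatocyte markers (median 3.10, 2 at an unadjusted p under 0.05) and all 4 neutrophil markers (median 1.57, 1 at an unadjusted p under 0.05) were above 0, none past the adjusted threshold. With a hepatocyte score in the model the median of the members was 0.38. The part of the T cell, endothelial and neutrophil markers in the members' values was not tested.

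DC-101 was compared with the same vehicle libraries. The members were between -0.06 (Tap1) and 0.34 (Psmb10), 7 of the 10 above 0 (9 with limma voom or RLE size factors, 5 with a hepatocyte score in the model, where the median was 0.01), with a median of 0.15 against -0.01 over all tested genes. None passed by edgeR, and none had an unadjusted p under 0.05 by edgeR, DESeq2 or limma voom, and 0% of tested genes passed by edgeR (2131 at an unadjusted p under 0.05). No member was apart from vehicle, where 5.25% of tested genes were higher without overlap. H2-K1 was at 9.83, 9.51 and 9.71 log2 CPM and Nlrc5 at 6.25, 5.55 and 5.81 under DC-101, all within the vehicle range. The intervals of Tap1 (-0.65 to 0.53) and Psmb10 (-0.21 to 0.89) leave room for changes of the size seen at low dose. All 7 endothelial markers were below 0 (median -1.40, 5 at an unadjusted p under 0.05) and all 15 hepatocyte markers above 0 (median 3.57, 3 at an unadjusted p under 0.05), none past the adjusted threshold. The part of the endothelial markers in the members' values was not tested. The median of the members was -0.04 without vehicle replicate 1 and 0.44 without vehicle replicate 3.

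Low dose regorafenib against DC-101 itself gave all 10 members above 0, from 0.18 (B2m) to 0.74 (Nlrc5, interval -0.18 to 1.66), with a median of 0.36 against -0.01 over all tested genes. None passed by edgeR, where 0% of tested genes did (1364 at an unadjusted p under 0.05). At an unadjusted p under 0.05 there were no members by edgeR or limma voom and 1 by DESeq2, which called none. H2-K1, H2-D1 and Tap1 were higher in each low dose library than in each DC-101 library, 3 of the 10 members, against 5.48% of tested genes. Tap1, a chain of the peptide transporter, was at 6.88, 7.57 and 7.13 log2 CPM at low dose and 6.80, 6.42 and 6.68 under DC-101. Without low dose replicate 2 the median of the members was 0.21 and Nlrc5 was at 0.34, and without DC-101 replicate 2 B2m was at 0.01. All 9 T cell markers (median 1.02), 7 NK and cytotoxic markers (median 0.68), 6 dendritic cell markers (median 0.67) and 4 neutrophil markers (median 1.32) were above 0 as well, none at an unadjusted p under 0.05, and their part in the members' values was not tested.

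The anti-PD1 experiment asked how regorafenib and an antibody to PD1 act alone and together. Low dose regorafenib against vehicle gave 8 of 10 members above 0, from -0.23 (Tap1) to 0.67 (Nlrc5), with a median of 0.12 against 0.03 over 16615 tested genes. None passed by edgeR, DESeq2 or limma voom, none had an unadjusted p under 0.05 by any of them, and 0% of tested genes passed by edgeR (1964 at an unadjusted p under 0.05). No member was apart, where 6.68% of tested genes were higher without overlap. The direction was not stable: with a hepatocyte score in the model 5 of 10 members were above 0 (median -0.07), and 5 were without the 3 libraries of low length contrast (median -0.02). Hepatocyte markers (8 of 15 at an unadjusted p under 0.05, median -1.76), endothelial markers (6 of 7, median -0.99) and B cell markers (3 of 4, median 1.77) moved with this comparison, none past the adjusted threshold. The part of the endothelial and B cell markers in the members' values was not tested. Vehicle replicate 1 also moved the median of the members: without it the median was 0.59, and without vehicle replicate 2 it was -0.07. In these fits Nlrc5 was at 1.24 and 0.23.

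The vehicle libraries of this experiment were far apart. H2-K1 was at 10.45, 9.53 and 9.26 log2 CPM in vehicle, Psmb10 at 7.38, 6.14 and 5.59 and Psmb9 at 7.48, 6.39 and 5.15. Vehicle replicate 1 was the highest library of its group for each of the 10 members, and for Tap1, Psmb8 and Psmb10 the highest of all 12. Its T cell marker mean was 2.67 log2 CPM, against 0.99 and -0.15 in the other vehicle libraries, and its part in the members' values was not tested.

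The antibody to PD1 alone gave members between -0.78 (Nlrc5) and 0.23 (Tapbp), 6 of the 10 above 0, with a median of 0.03 against -0.06 over all tested genes. None passed by edgeR, DESeq2 or limma voom, none had an unadjusted p under 0.05 by any of them, and 0% of tested genes passed by edgeR (2269 at an unadjusted p under 0.05). No member was higher without overlap, where 7.42% of tested genes were. The directions were not stable: with a hepatocyte score in the model 2 of 10 members were above 0 (median -0.28, Tapbp at -0.35), 8 were with limma voom (median 0.21), and 1 was without 3 libraries of low length contrast (median -0.14), the level of the longest mRNAs against the shortest. Of 15 hepatocyte markers 13 had an unadjusted p under 0.05 (median -2.23) and of 7 NK and cytotoxic markers 6 had (median -2.23), none past the adjusted threshold. The part of the NK and cytotoxic markers in the members' values was not tested. The median of the members was 0.54 without vehicle replicate 1 and -0.22 without vehicle replicate 3. Nlrc5 was at -0.18 without vehicle replicate 1 and at -1.22 without vehicle replicate 2.

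The combination against vehicle gave all 10 members above 0, from 0.18 (Psmb8) to 0.71 (Tap2), with a median of 0.45 against -0.05 over all tested genes. None passed by edgeR, DESeq2 or limma voom, none had an unadjusted p under 0.05 by any of them, and 0% of tested genes passed by edgeR (1362 at an unadjusted p under 0.05). No member was apart from vehicle, where 9.58% of tested genes were higher without overlap. H2-K1 was at 10.08, 10.10 and 10.64 log2 CPM under the combination, a log2 change of 0.46 (-0.26 to 1.17). B2m was at 11.55, 10.70 and 10.63 in vehicle and 11.42, 11.37 and 11.80 under the combination, a log2 change of 0.52 (-0.13 to 1.18). For both genes the combination libraries were above vehicle replicates 2 and 3, and 2 of the 3 were below vehicle replicate 1.

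The transporter and loading genes under the combination were Tap1 at 0.24, Tap2 at 0.71 and Tapbp at 0.67. H2-D1 was at 0.42, the immunoproteasome subunits Psmb8, Psmb9 and Psmb10 at 0.18, 0.36 and 0.44 and Nlrc5 at 0.68, each interval reaching 0. Without vehicle replicate 1 the median was 0.99, with no member past the threshold and 8 at an unadjusted p under 0.05, where 10.2% of tested genes had, and without vehicle replicate 3 it was 0.21. Without vehicle replicate 2 Tap2 was at 0.39, Tapbp at 0.42 and Nlrc5 at 0.25. All 9 T cell markers were above 0 (median 1.12, 2 at an unadjusted p under 0.05) and all 7 endothelial markers below 0 (median -0.59, 2 at an unadjusted p under 0.05), none past the adjusted threshold. The T cell marker mean was 2.05, 2.67 and 3.27 log2 CPM under the combination, of which 1 was below vehicle replicate 1 (2.67), 1 level with it and 1 above. The part of these markers in the members' values was not tested.

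Against each single treatment, the combination was higher for most members. Against anti-PD1 alone all 10 were above 0, from 0.24 (Psmb8) to 1.46 (Nlrc5), with a median of 0.39 against 0.00 over all tested genes. None of the members passed by edgeR, DESeq2 or limma voom, with 1, 1 and 0 of them at an unadjusted p under 0.05, and 0% of tested genes passed by edgeR (1443 at an unadjusted p under 0.05). H2-K1, H2-D1, Tap2 and Nlrc5 were higher in each combination library than in each anti-PD1 library, 4 of the 10, against 16% of tested genes. Hepatocyte markers (13 of 15 at an unadjusted p under 0.05, median 2.35), NK and cytotoxic markers (6 of 7, median 2.08) and T cell markers (5 of 9, median 1.81) moved with this comparison, none past the adjusted threshold. With a hepatocyte score in the model the median of the members was 0.65. The part of the NK and cytotoxic markers and of the T cell markers in the members' values was not tested. Against low dose regorafenib alone 9 of 10 were above 0, from -0.08 (Psmb9) to 0.56 (Tapbp), with a median of 0.40 against -0.04 over all tested genes. Psmb9 turned above 0 with scaling by total counts (0.02). None passed or had an unadjusted p under 0.05 by edgeR, DESeq2 or limma voom, and 0% of tested genes passed by edgeR (605 at an unadjusted p under 0.05). H2-K1, H2-D1 and B2m, the genes of the class I molecule, were higher in each combination library, 3 of the 10, against 5.99% of tested genes. Without combination replicate 3 the median of the members was 0.20 against anti-PD1 and 0.19 against low dose.

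Nlrc5 had the largest change of any member in any comparison. It was at 4.39, 4.62 and 4.30 log2 CPM under anti-PD1 and 5.64, 5.60 and 6.34 under the combination, a log2 change of 1.46 (0.08 to 2.84; unadjusted p = 0.0398, adjusted p = 0.550 by edgeR). It was at 5.98, 3.46 and 5.24 in vehicle and 6.34, 4.04 and 6.33 at low dose, so vehicle replicate 2 and low dose replicate 2 were low with the anti-PD1 libraries. These 5 libraries were also those with the lowest share of mitochondrial counts, 0.26% to 0.68%, where Nlrc5 was at 3.46 to 4.62, against 0.92% to 2.34% in the other 7, where it was at 5.24 to 6.34. All 3 anti-PD1 libraries were among the 5, with 1 vehicle and 1 low dose library. The part of the mitochondrial share in the values of Nlrc5 was not tested.

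The length contrast of the libraries moved with the members in unequal ways in this experiment. Across its 12 libraries, Pearson's r with the length contrast was 0.80 for Nlrc5, 0.67 for Tap2, 0.53 for Tap1 and 0.52 for Tapbp. It was -0.47 for Psmb9, -0.39 for Psmb8 and -0.34 for Psmb10, and between these for H2-K1 (0.21), B2m (0.19) and H2-D1 (0.10). The libraries share an experiment and include 4 treatments, and these values are descriptions. In the dose and DC-101 experiments, where the length contrast was narrower, Nlrc5 had 0.27 in each. The other members were at -0.74 (B2m) to -0.03 (Tapbp) in the dose experiment, with Psmb10 at -0.49, and at -0.37 (Psmb10) to 0.25 (Tap1) in the DC-101 experiment. When 3 libraries with a length contrast below the range of the other experiments (vehicle replicate 2, low dose replicate 2 and anti-PD1 replicate 1) were left out, the median under the combination was 0.30, with Tap1 at -0.02 and Psmb8 at -0.01.

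**Figure D3:**
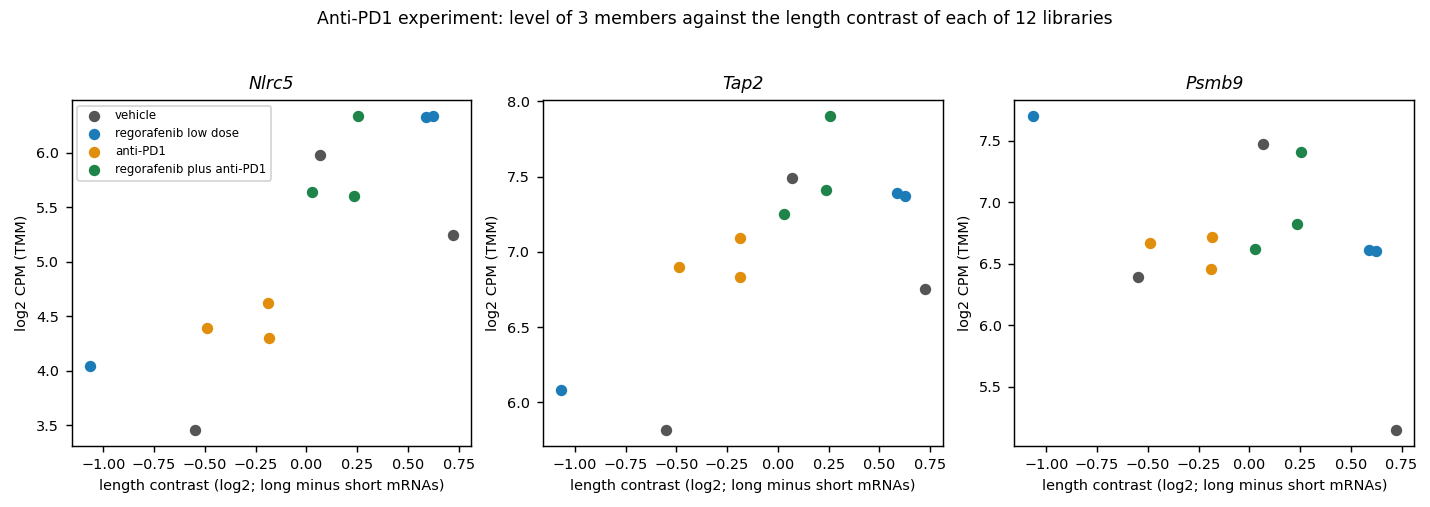
Log2 CPM of Nlrc5, Tap2 and Psmb9 against the length contrast (log2, the longest mRNAs minus the shortest) of each of the 12 libraries of the anti-PD1 experiment, coloured by group. Nlrc5 and Tap2 are low in libraries with a low contrast (r of 0.80 and 0.67), and Psmb9 is high in low dose replicate 2, the library with the lowest contrast (-1.07).

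Low dose regorafenib was measured in all 3 experiments, and a fit with the experiment as a term compared 9 low dose with 11 vehicle libraries. All 10 members were above 0, from 0.19 (Tap1) to 0.54 (Nlrc5), with a median of 0.33 against 0.03 over 15562 tested genes. None passed the threshold by edgeR, DESeq2 or limma voom, with 3, 3 and 5 members at an unadjusted p under 0.05 (16%, 18.5% and 15.7% of tested genes), where 1.77% of tested genes passed by edgeR. Of 7 endothelial markers 5 fell (median -1.22) and of 15 hepatocyte markers 1, Ass1, rose (median 1.28). All 9 T cell markers were above 0 (median 0.66, and 0.97 without vehicle replicate 1 of the anti-PD1 libraries, with none past the threshold), and 4 of 6 NK and cytotoxic markers were (median 0.46). With a hepatocyte score in the model the median of the members was 0.25. In that fit 1 member and 14.9% of tested genes had an unadjusted p under 0.05. The part of the endothelial, T cell and NK and cytotoxic markers in the members' values was not tested. The low dose libraries were at different heights by experiment, so each experiment's values stand above and are not repeated.

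Psmb10 had the smallest p, with a log2 change of 0.52 (0.10 to 0.93; unadjusted p = 0.0186, adjusted p = 0.204 by edgeR). B2m was at 0.31 (0.01 to 0.62; unadjusted p = 0.0435, adjusted p = 0.296 by edgeR) and Tapbp at 0.38 (0.00 to 0.75; unadjusted p = 0.049, adjusted p = 0.311 by edgeR). The other members were H2-K1 at 0.30, H2-D1 at 0.29, Tap1 at 0.19, Tap2 at 0.27, Psmb8 at 0.35, Psmb9 at 0.48 and Nlrc5 at 0.54. Their intervals reached 0, and the highest bound was 1.16 for Nlrc5.

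The count of 0 changed without 1 library, which was the highest of its vehicle group for each of the 10 members. Leaving it out therefore raises the low dose changes, and the members vary together, so they are not separate results. With the high vehicle library of the anti-PD1 experiment (replicate 1) left out, Psmb10 was at 0.70 and passed the threshold (adjusted p = 0.0331 by edgeR), all 10 members had an unadjusted p under 0.05, and the median was 0.46. In that fit 1.95% of tested genes passed and 16.5% had an unadjusted p under 0.05. Leaving out any other single library gave no member past it. A test of whether the low dose change differed between experiments called 0% of 15562 genes by edgeR, with 1481 at an unadjusted p under 0.05. No member had an unadjusted p under 0.05 in it, limma voom called no gene, and edgeR's adjusted p-values of the members were 0.840 to 0.999.

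The balance between immunoproteasome and constitutive subunits was measured as a difference of log2 CPM within a library, Psmb8 to Psmb5, Psmb9 to Psmb6 and Psmb10 to Psmb7, the pairs that replace each other in the proteasome. In the dose experiment, Psmb8 to Psmb5 was 2.53 ± 0.12 (SD, n = 3) at low dose and 2.05 ± 0.12 (n = 4) in vehicle, with ranges of 2.42 to 2.65 and 1.92 to 2.17. The difference was 0.48 (exact permutation test, 2-sided, p = 0.0286, the smallest this design allows). Over the 3 experiments, with labels permuted within experiments, the difference was 0.51 for Psmb8 to Psmb5 (exact permutation p = 0.0331), 0.44 for Psmb9 to Psmb6 (exact permutation p = 0.0839) and 0.42 for Psmb10 to Psmb7 (exact permutation p = 0.123). Of 24 such tests 2 had an unadjusted p under 0.05 and none passed after Benjamini-Hochberg adjustment (smallest adjusted p = 0.370). Comparisons within the anti-PD1 experiment cannot go below 0.1. Without vehicle replicate 1 of that experiment, Psmb8 to Psmb5 over the 3 experiments was at 0.68 and passed (exact permutation p = 0.00155, adjusted p = 0.0372). That library had the highest Psmb8 to Psmb5 of its group (4.24), so leaving it out raises the difference.

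Genes around the pathway were taken from lists that hold no member. Under low dose over 3 experiments, all 7 genes of peptide loading and trimming were above 0 (median 0.37, 5 at an unadjusted p under 0.05), from 0.09 for Sec61a1, a subunit of the translocon, to 0.51 for the chaperone gene Hspa5, and none passed the threshold. With that vehicle library left out 1 of them passed. The 6 proteasome activator and constitutive catalytic subunit genes had a median of 0.18, with 1 at an unadjusted p under 0.05. Of 16 tested other class I heavy chains 12 were above 0 (median 0.20), and of 17 regulators of class I transcription 16 were (median 0.20, 4 at an unadjusted p under 0.05), with none past the threshold in either list. Without the same vehicle library the median of the other class I heavy chains was 0.39.

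Of 9 tested genes of the type I interferon axis all were above 0 under low dose over 3 experiments (median 0.98, 7 at an unadjusted p under 0.05, none past the threshold, and 3 past it without vehicle replicate 1 of the anti-PD1 libraries). Of 12 tested genes of the interferon gamma axis 8 were above 0 (median 0.22), and Ifngr2, a chain of the interferon gamma receptor, rose by 0.42. Without that library the median was 0.49, with 2 genes past the threshold. Ifng itself had 0 to 33 counts in a library, with the highest count in combination replicate 3, so its level was close to the limit of detection.

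At high dose, where 15.6% of tested genes passed, 3 of 16 tested other class I heavy chains rose, a share near that of all genes: Cd1d1 (3.75), which presents lipids, and the nonclassical genes H2-T22 (0.68) and H2-T10 (0.66). Of 17 regulators of class I transcription 1 rose, Stat2 (1.09), and 1 fell, Nfkb1 (-0.47). Of 12 tested genes of the interferon gamma axis, the GTPase genes Gbp2 (1.01) and Igtp (1.65) rose and the receptor genes Ifngr1 (-0.53) and Ifngr2 (-0.51) fell. None of the 7 loading and trimming genes and none of the 9 type I interferon axis genes passed (medians 0.00 and 0.03). With scaling by total counts, no other class I heavy chain or regulator passed and 1 gene of the interferon gamma axis did, and without high dose replicate 1 these counts were 1, 0 and 1.

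The members varied together across libraries. With levels centred on each experiment, r between a member and the mean of the other 9 over 32 libraries was 0.95 for H2-K1, 0.94 for H2-D1 and 0.85 for B2m, and lowest for Nlrc5 at 0.66. The libraries share experiments and differ in treatment, so these values are descriptions. Over the 45 pairs of members, the median r was 0.76, 0.89 and 0.73 for the dose, DC-101 and anti-PD1 libraries. In the anti-PD1 experiment the immunoproteasome subunits had r of 0.93 to 0.96 with each other and 0.10 to 0.51 with Tap1, Tap2, Tapbp and Nlrc5 (12 pairs, median 0.30), against 0.15 to 0.97 (median 0.78) and 0.65 to 0.92 (median 0.80) for these 12 pairs in the dose and DC-101 experiments. The subunits have shorter mRNAs (1311 to 1628 bases) than Tap1, Tap2, Tapbp and Nlrc5 (2898 to 7578 bases). In the anti-PD1 experiment r with the length contrast was -0.47 to -0.34 for the subunits and 0.52 to 0.80 for the longer genes. The part of the length contrast in these pairs was not tested.

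**Figure D4:**
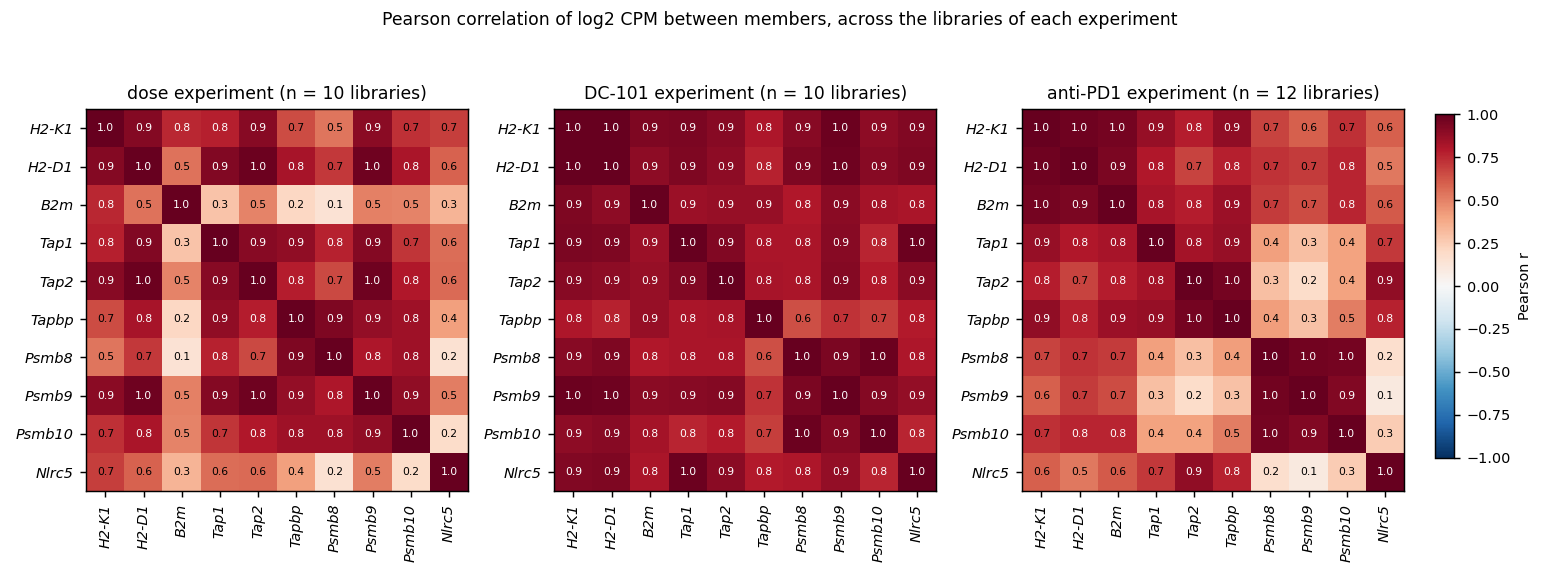
Pearson correlation of log2 CPM between each pair of members over the libraries of each experiment (n = 10, 10 and 12), from -1 (blue) to 1 (red). In the anti-PD1 experiment the block of Psmb8, Psmb9 and Psmb10 is set off from Tap1, Tap2, Tapbp and Nlrc5, with a median r of 0.30 over these 12 pairs. There the block had negative r with the length contrast, and Tap1, Tap2, Tapbp and Nlrc5 had positive r. The part of the length contrast in these pairs was not tested.

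With the members left out, the genes closest to the mean of the members were ranked by r over the 32 centred libraries among 13983 genes. The first were the class I heavy chains H2-Q4 (0.93), H2-Q6 (0.92), H2-Q5 (0.89) and H2-K2 (0.89), members of the same gene family as H2-K1 and H2-D1. How reads were shared out within this family is uncertain, as given above, and its part in these values was not tested. Among those that followed were the T cell genes Cd8b1 (0.88) and Trac (0.88), the surface receptor gene Slamf8 (0.88), the chemokine gene Cxcl9 (0.87) and Xaf1 (0.86).

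Among the marker lists, the mean of 9 T cell markers had an r of 0.85 with the mean of the members over 32 libraries and was 0.75, 0.85 and 0.90 within single experiments (first dose, then DC-101, then anti-PD1, as for each list here). The lists that were also high in each experiment were the interferon gamma axis (0.85, and 0.60, 0.92 and 0.85 by experiment), the regulators of class I transcription (0.83, and 0.65, 0.94 and 0.82) and the other class I heavy chains (0.72, and 0.61, 0.89 and 0.67). Some lists were lower in the dose experiment than in the other two: the type I interferon axis (0.29, 0.88 and 0.80), dendritic cell markers (0.22, 0.80 and 0.79), the loading and trimming genes (0.00, 0.77 and 0.68) and leukocyte markers (0.12, 0.91 and 0.68). Markers of NK and cytotoxic cells (0.78, 0.32 and 0.60) and of B cells (0.59, 0.20 and 0.38) were highest there. Neutrophil markers had -0.82 in the dose experiment and 0.29 and 0.21 in the others, hepatocyte markers 0.26, 0.52 and -0.15, proliferation markers -0.18, -0.45 and 0.14, and endothelial markers -0.37, -0.64 and -0.12. Fibroblast markers (0.08, 0.12 and 0.45), macrophage markers (0.21, 0.25 and 0.09) and the proteasome activator and constitutive subunits (-0.01, 0.19 and 0.05) made up the rest. All of these share libraries and scaling and are descriptions.

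**Figure D5:**
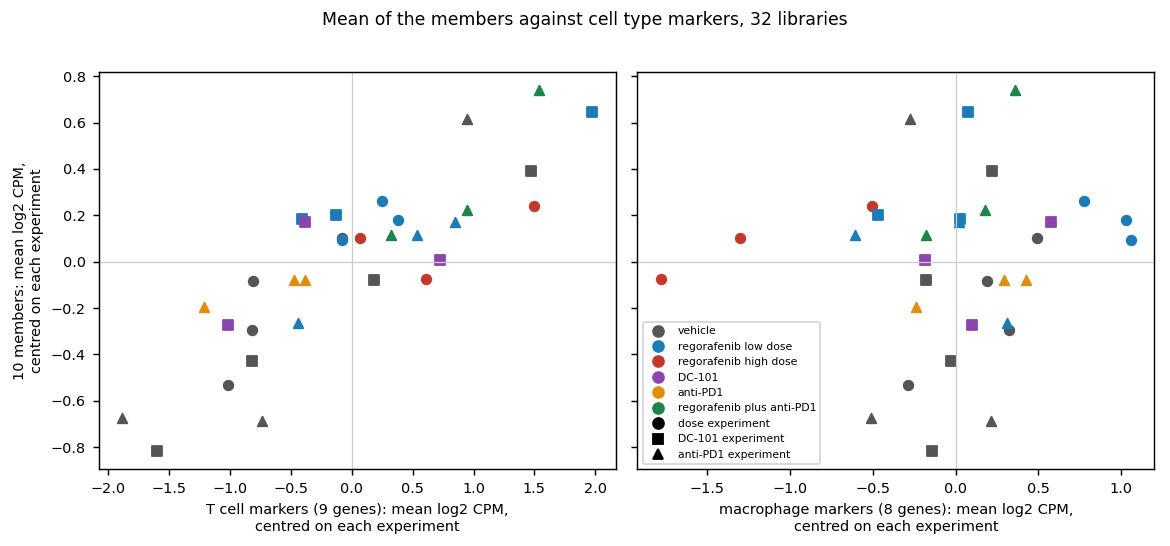
Mean of the 10 members against the mean of 9 T cell markers (left) and of 8 macrophage markers (right) in each of the 32 libraries, as log2 CPM centred on each experiment, with colours for treatments and shapes for experiments. Libraries with more T cell marker RNA have higher members (r of 0.85 over 32 libraries), and the high dose libraries are low for macrophage markers while their members stay near 0.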

How the data were processed

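Total RNA of tumours, frozen per the labels and fresh per the methods of the study, was made into stranded mRNA libraries and sequenced on an Illumina NextSeq instrument. The authors trimmed reads with cutadapt 2.4, aligned them with STAR 2.7.2a to GRCm38 and deposited the raw read counts per gene that STAR made, not normalized, in 1 table per experiment. The annotation was Gencode M19, and the strand column that was used is not given in the sources used here. Of 54446 genes, 54409 matched a symbol and coordinates in the Gencode M21 annotation.

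Counts were analysed with R 4.3.3 and edgeR 4.0.16, after TMM scaling and filterByExpr (minimum count 10, minimum total 15), with the robust quasi-likelihood F-test, all groups of an experiment in 1 fit, and Benjamini-Hochberg adjustment over all tested genes (threshold 0.05). The low dose over 3 experiments had the experiment as a term. The 95% intervals use the standard error from the F statistic. DESeq2 1.42.0, limma 3.58.1 (voom), other scalings, no filter, a hepatocyte covariate, a replicate block and leaving out each library were alternatives. An offset for mRNA length and leaving out 3 libraries by their length contrast were added after the data were seen. The scripts were tested on simulated data, and in the comparison simulated DESeq2 made more false calls than its threshold allows.

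The 10 members and the 17 gene lists were chosen with earlier results of these data known. All members are named; of the lists, genes past the threshold and the extremes are, and of the genes most like the members 1 is not reported here. Log2 changes of each member are given for 5 comparisons and the extremes for the others, a limit set after it was seen how many small changes switched sign. Group labels come from the deposited descriptions. No pair of libraries within a group agreed within counting noise (chi-square per degree of freedom 12.9 or more), so none was treated as a library deposited more than once, which does not show that they came from separate mice.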

Additional observations from a re-analysis of the deposited data

How the results depend on the processing

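Over the 64 member changes recomputed under all settings (all members in 5 comparisons, the lowest and highest in 7), limma voom, RLE size factors and the replicate block changed no direction and no side of the threshold, nor did fitting only the 2 groups compared in 54 of 54. Other members turned: under DC-101, 7 were above 0, and 9 with voom or RLE and 8 with the block, and under anti-PD1 6, and 8 with voom or the block. At high dose DESeq2 called 3 members (H2-K1, B2m and Nlrc5), and leaving out a library gave 0 to 1, with 1 without high dose replicate 1. For the low dose over 3 experiments, leaving out a library gave 0 to 1 members, and for the subunit ratios 0 to 1 tests, with 1 in both when anti-PD1 vehicle replicate 1 was left out. The cause was not tested.

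Of the changes recomputed, these turned, none of them past the threshold. At high dose Tapbp was -0.03 and Psmb8 -0.11 with total counts, and Psmb8 was -0.01 without the filter. Under anti-PD1, Tapbp was -0.35 with the hepatocyte covariate and -0.05 without the 3 libraries of low length contrast, and without these Tap1 was -0.02 and Psmb8 -0.01 under the combination. Psmb9, combination against low dose, was 0.02 with total counts, 0.05 with the length offset and 0.40 without those 3 libraries. Leaving out single libraries gave 0.00 to 0.24 for Tapbp and -0.07 to 0.14 for Psmb8 at high dose, -0.23 to 0.14 for Tap1 under DC-101, -0.48 to 0.31 for Tap1 at low dose in the anti-PD1 experiment and -0.02 to 0.65 for Tapbp under anti-PD1. Under the combination these ranges were -0.07 to 0.79 for Tap1, -0.17 to 0.92 for Psmb8 and -0.04 to 1.06 for Psmb9, and -0.35 to 0.38 for Psmb9 against low dose.

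Counts over all genes also changed with the settings. At high dose 2582 genes passed with edgeR, 5275 with DESeq2, 1349 with voom, 282 with total counts, 416 without the filter, 190 with the hepatocyte covariate, 4 with only the 2 groups and 15 to 7030 when a library was left out. High against low dose gave 697, 3059 with DESeq2, 198 with total counts, 309 without the filter and 62 to 4488 when a library was left out. High against low dose gave 0 with only the 2 groups. The low dose in the DC-101 experiment gave 4, 1097 with DESeq2, 12 without the filter, 0 with the block or the covariate and 1 with only the 2 groups. At low dose in the dose experiment edgeR called 0 genes, and 75 with only the 2 groups, where 6 members and 12.9% of tested genes had an unadjusted p under 0.05. Where edgeR called 0 genes, DESeq2 called 85 at low dose in the dose experiment, 372 under DC-101 and 187 for low dose against DC-101, and, in the anti-PD1 experiment, 435 at low dose, 614 under anti-PD1, 150 under the combination, 192 for the combination against anti-PD1 and 0 against low dose. The low dose over 3 experiments gave 276, 892 with DESeq2, 153 without the filter, 178 with the block, 474 with the length offset, 467 without the 3 libraries, and 63, 17 and 407 without the dose, DC-101 or anti-PD1 experiment.

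Replicate numbers did not pair the libraries: deviations of same-numbered libraries correlated above 0.1 in 2 of 9, 4 of 9 and 6 of 18 pairs of groups. With the replicate block, 0 members passed in each comparison, and 1 gene in all at high dose and 1 for high against low dose.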
